A study of Mus musculus with 8 samples.

Results

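Sialyltransferases are the enzymes that cap glycan chains with sialic acid, and 10 of their genes, chosen with St3gal4, were followed in the jejunum of 2 inbred mouse strains. Members were the rows of the deposited count table that map to St3gal1, St3gal2, St3gal3, St3gal4, St3gal5, St3gal6, St6gal1, St6galnac1, St6galnac2 and St6galnac6. They gave 11 of the 56941 gene identifiers in the table, because St6galnac2 has 2 identifiers. The group was selected on the measured C3H to B6 difference of these same libraries, in which St3gal4 had been seen to be far lower in C3H. Strain differences of the members are therefore given as a description, without a test.

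The samples were jejunum from naive C3H/HeJ mice (C3H, 4 libraries, replicates 1, 3, 4 and 5) and naive C57BL/6 mice (B6, 4 libraries, replicates 2, 3, 4 and 5). Per the labels, mice of both strains were aged 6 to 8 weeks and were kept in shared cages for at least 8 weeks before harvest. Whether this age was that at the start of co-housing is not stated. By the same labels the mice received no treatment, and all libraries belong to batch 1. Libraries of mRNA were made with a stranded kit, and the table holds whole-number counts of reads per gene. The labels do not say that each library is a separate mouse, so p-values measure only the spread between these libraries, which may be technical.

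Library totals ran from 40052468 to 48693077 counts in C3H and from 37205896 to 58251332 in B6. Levels below are CPM, the reads of a gene relative to the library total, after TMM scaling, which corrects the totals for composition. Enterocyte markers summed to between 47981 and 78954 CPM in C3H and between 51730 and 67649 CPM in B6, with 0 of 8 past the threshold. Whether they tell jejunum from other gut segments was not tested. In the edgeR quasi-likelihood fit over 18025 tested genes, 21.4% were called between the strains at an adjusted p under 0.05, 11.3% higher and 10.1% lower in C3H. Pancreatic transcripts were highest in C3H 3, C3H 5, B6 2 and B6 3 (9 markers summing to between 48.1 and 2731 CPM in C3H and between 24.3 and 240.3 in B6).

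Sialic acid is the usual last sugar of glycans on mucins, cell surface proteins and gangliosides in the gut. The ST3GAL enzymes attach it to a terminal galactose, ST6GAL enzymes attach it to galactose through another carbon, and ST6GALNAC enzymes attach it to N-acetylgalactosamine, the sugar that roots mucin-type O-glycans. Members of a subfamily share acceptors in part, so more than 1 gene can serve the same glycan. In whole tissue, fewer cells of a type and less RNA per cell cannot be told apart.

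The promoter window of St3gal4 is shown because this gene carries the strain difference. It spans 250 bases before to 50 bases after the annotated start in RefSeq (GRCm38.p6, chr9:35116815-35117114, minus strand) and is the C57BL/6J reference sequence. Capitals mark matches to CTCCCTCC, a word picked because it recurs in this window.

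St3gal4: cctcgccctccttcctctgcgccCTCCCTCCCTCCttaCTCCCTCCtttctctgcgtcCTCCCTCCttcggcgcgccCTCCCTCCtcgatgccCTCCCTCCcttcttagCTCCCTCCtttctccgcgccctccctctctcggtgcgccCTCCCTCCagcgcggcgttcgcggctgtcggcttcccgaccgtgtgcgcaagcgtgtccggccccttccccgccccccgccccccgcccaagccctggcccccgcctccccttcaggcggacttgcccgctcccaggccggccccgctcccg

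On both strands together the word occurred 8 times here, all on the printed strand and with 1 pair overlapping. At least 1 match was present in 7.07% of 32851 promoter windows of the same length. The window was rich in G and C, at 74%, against a median of 52.7% over all windows, and held 31 CpG dinucleotides against a median of 7. Windows were matched for 6 members (9 windows), and the other 8, from St3gal3, St3gal5, St3gal6, St6gal1 and St6galnac6, held no match to the word. Nothing is read from this, since the word was picked from the St3gal4 window and most windows lack it. The annotation lists 9 St3gal4 transcripts with 9 different starts, and counts per gene do not show which start was used. The C3H sequence of the window was not analysed here.

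St3gal4, which caps galactose at the ends of N-glycans and O-glycans and helps build selectin ligands, was present only at a low level in C3H. St3gal4 (ENSMUSG00000032038, chromosome 9) stood at 12.5, 14.1, 9.59 and 13.6 CPM in the C3H libraries, against 1567, 1657, 1641 and 1650 CPM in the B6 libraries. All C3H libraries were low and all B6 libraries high, with a wide gap between the strains. The C3H values rested on 375 to 734 reads per library and the B6 values on 58980 to 88806, so the gene was detected in all 8 libraries. The log2 fold change was -7.03 with a standard error of 0.16, and it lay between -7.11 and -6.93 when any 1 library was left out. Of 18025 tested genes 40, St3gal4 included, had a log2 fold change at least as low. The coefficient of variation of St3gal4 between libraries was 16.2% in C3H and 2.56% in B6.

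**Figure D1:**
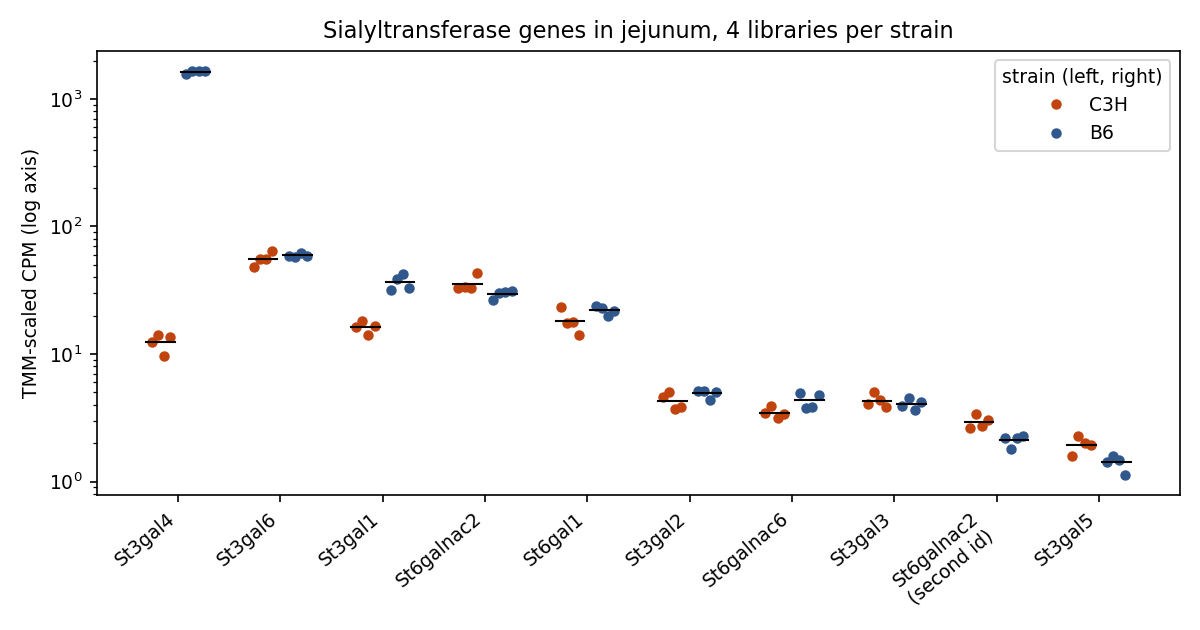
TMM-scaled CPM (log axis) of the sialyltransferase identifiers in 4 C3H libraries (left of each pair) and 4 B6 libraries (right), with black lines at the strain means; St6galnac1, with 0 to 2 reads per library, is left out. St3gal4 lies between 9.59 and 14.1 CPM in C3H and between 1567 and 1657 CPM in B6. St3gal1 lies between 14.04 and 18.2 CPM in C3H and between 31.6 and 42.5 CPM in B6, and the strain means of the remaining genes lie closer together.

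Of the closest relatives by acceptor, which also cap galactose on N-glycans and glycolipids, neither stood higher in C3H by more than the spread between libraries. St3gal6 (ENSMUSG00000022747, chromosome 16) had 47.7, 55.8, 55.6 and 64.3 CPM in C3H and 58.6, 58.1, 62.0 and 59.2 CPM in B6. The strains overlapped, and C3H 5 was the highest of all 8 libraries and C3H 1 the lowest. The log2 fold change of St3gal6 was -0.09 with a standard error of 0.09. St3gal3 (ENSMUSG00000028538, chromosome 4) was scarce in both strains, averaging 4.31 ± 0.50 CPM in C3H and 4.06 ± 0.38 CPM in B6 (SD, n = 4 each). Its log2 fold change was 0.09 with a standard error of 0.12 and turned to -0.0071 without C3H 3.

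St3gal1 and St3gal2 encode enzymes that cap galactose on the core of mucin-type O-glycans, and St3gal2 also acts on gangliosides. St3gal1 (ENSMUSG00000013846, chromosome 15) was the other member whose C3H libraries all lay below the B6 libraries. It had 16.3, 18.2, 14.04 and 16.7 CPM in C3H and 31.6, 38.5, 42.5 and 33.1 CPM in B6. The highest C3H library stayed below the lowest B6 library, and the log2 fold change was -1.16 with a standard error of 0.11. St3gal2 (ENSMUSG00000031749, chromosome 8) overlapped between the strains, at 4.31 ± 0.62 CPM in C3H and 4.91 ± 0.37 CPM in B6 (SD, n = 4 each).

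Lymphocyte transcripts, like St3gal1, stood lower in C3H than in B6, and T cells are among the cells that express St3gal1. By the edgeR test 10.1% of all tested genes fell in C3H, and all 8 markers of T cells and intraepithelial lymphocytes did. They summed to between 145 and 238 CPM in C3H and between 418 and 452 CPM in B6. Within C3H this sum was highest in C3H 5 and St3gal1 was highest in C3H 3. Within B6 the sum was highest in B6 5 and St3gal1 in B6 4. The 6 markers of B and plasma cells, of which 1 fell and 0 rose, summed to between 754 and 1015 CPM in C3H and between 1139 and 1382 CPM in B6. No marker of either list was at 0 in any library. Their part in the strain difference of St3gal1 was not tested.

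St3gal5, the synthase of the ganglioside GM3, and St6gal1, which caps galactose on N-glycans and is known in B cells for making the ligand of Cd22, overlapped between the strains. St3gal5 (ENSMUSG00000056091, chromosome 6) had 1.59, 2.28, 1.99 and 1.93 CPM in C3H and 1.43, 1.59, 1.48 and 1.13 CPM in B6, so only C3H 1 lay among the B6 values. St6gal1 (ENSMUSG00000022885, chromosome 16) had 23.4, 17.6, 17.9 and 14.1 CPM in C3H and 23.9, 22.9, 20.02 and 21.9 CPM in B6. Here 3 C3H libraries lay below all B6 libraries and C3H 1 among them. The log2 fold changes were 0.47 for St3gal5 (standard error 0.17) and -0.28 for St6gal1 (standard error 0.13). Without C3H 1 they were 0.55 and -0.43.

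Among the ST6GALNAC genes, St6galnac2, whose enzyme adds sialic acid to mucin-type O-glycans, was slightly higher in C3H. Its main identifier (ENSMUSG00000057286, chromosome 11) had 32.9, 33.3, 32.6 and 42.8 CPM in C3H and 26.6, 29.9, 30.6 and 31.3 CPM in B6. The strains did not overlap, but 3 of the C3H libraries lay just above the highest B6 library, and C3H 5 stood apart. The log2 fold change was 0.26 with a standard error of 0.10. It was 0.15 without C3H 5 and 0.07 without the 4 pancreas-rich libraries, of which C3H 5 is 1. The second identifier (ENSMUSG00000110170), which overlaps the first on the same strand, averaged 2.94 ± 0.34 CPM in C3H and 2.11 ± 0.20 CPM in B6 (SD, n = 4 each). How reads were divided between the identifiers is uncertain.

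The remaining members were scarce. St6galnac6 (ENSMUSG00000026811, chromosome 2), whose enzyme acts on gangliosides, averaged 3.47 ± 0.30 CPM in C3H and 4.33 ± 0.61 CPM in B6 (SD, n = 4 each), with overlapping libraries. St6galnac1 (ENSMUSG00000009588, chromosome 11), the enzyme that starts sialylation on the root sugar of mucin O-glycans, had 4 reads over the C3H libraries and 1 read over the B6 libraries. It was the only member that did not pass the filter on low counts, although goblet cell markers were abundant at 8374 to 11317 CPM in C3H and 10500 to 12815 CPM in B6. Of 8 goblet markers 2 fell and 0 rose, against 21.4% of all tested genes called.

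Of the 10 identifiers that passed the filter, 3 were called in the fit over all genes, against 21.4% of all tested genes. St3gal4 and St3gal1 were lower and the second St6galnac2 identifier was higher in C3H. Nothing is read from this count, since the same contrast chose the group. Leaving out B6 2, B6 3, B6 4, C3H 3 or C3H 5 alone ended the call of the second St6galnac2 identifier. This identifier was also not called without a filter or in the 6 libraries whose replicate numbers occur in both strains. The same held without the 4 pancreas-rich libraries, where its log2 fold change was 0.24 against 0.47 in all 8. Without C3H 1, 5 identifiers were called, St3gal5 higher and St6gal1 lower among them. By separation of the libraries, 4 identifiers did not overlap between the strains, those 3 and the main St6galnac2 identifier, against 24.4% of all tested genes. The pair above B6 stands against 12.7% of tested genes and the pair below against 11.7%.

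No relative was higher in C3H by an amount close to the St3gal4 difference, and the family total followed St3gal4. The 10 members together summed to 149, 159, 146 and 168 CPM in C3H and to 1725, 1823, 1811 and 1813 CPM in B6. That is 155 ± 9.84 CPM in C3H and 1793 ± 45.7 CPM in B6 (SD, n = 4 each), 11.5-fold lower in C3H. The 9 relatives without St3gal4 summed to 137, 144, 136 and 154 CPM in C3H and to 158, 166, 171 and 163 CPM in B6. Every C3H library held less of the relatives than any B6 library, with means of 143 ± 8.36 CPM in C3H and 165 ± 5.22 CPM in B6 (SD, n = 4 each).

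Set against the St3gal4 difference, those of the relatives were small. St3gal4 was lower by 1616 CPM, while the relative with the largest difference upward, the main St6galnac2 identifier, was higher by 5.78 CPM, or 0.358% of that amount. All 5 relative identifiers with a higher mean in C3H were higher by 7.42 CPM together, 0.459% of the same amount. The net difference of the relatives was -21.7 CPM, most of it from St3gal1 at -20.1 CPM. Adding the 10 other sialyltransferase genes of the mouse left the total without St3gal4 at 160.0 ± 6.42 CPM in C3H and 185 ± 4.96 CPM in B6 (SD, n = 4 each).

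**Figure D2:**
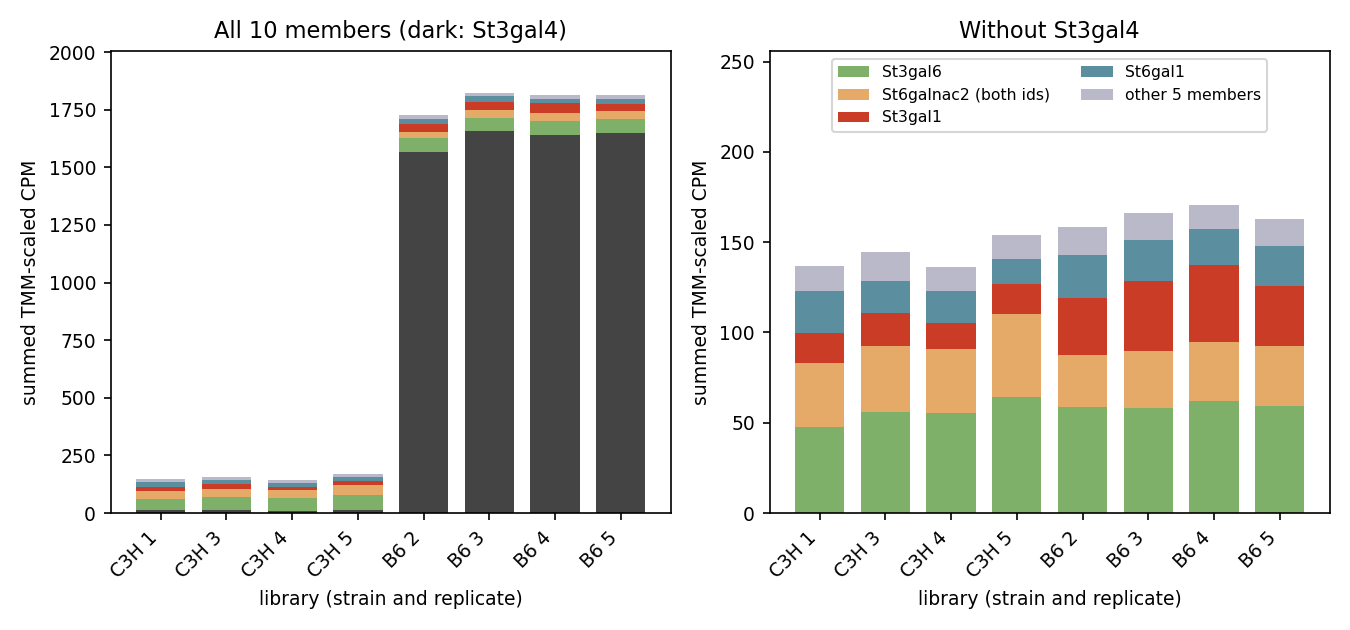
Summed TMM-scaled CPM of the 10 sialyltransferase genes in each library, C3H left of B6, with all members (left panel) and without St3gal4 (right panel). The full sums are 146 to 168 CPM in C3H and 1725 to 1823 CPM in B6, whereas the sums without St3gal4 are 136 to 154 CPM in C3H and 158 to 171 CPM in B6.

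The makeup of the family total differed accordingly. St3gal4 gave 7.99% ± 0.99 of the members' summed CPM in C3H and 90.8% ± 0.18 in B6 (SD, n = 4 each). St3gal6 gave 35.9% ± 2.999 in C3H and 3.32% ± 0.11 in B6, and the main St6galnac2 identifier 22.7% ± 1.97 in C3H and 1.65% ± 0.08 in B6. These larger shares in C3H came with a smaller total, not with more CPM of St3gal6. With levels divided by annotated exon length, St3gal4 gave 13.6% ± 1.57 in C3H and 94.9% ± 0.08 in B6.

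Per kilobase of exon, the order of the genes differed between the strains. St6galnac2 was ranked by its main identifier alone. The second identifier, left out, had 1.74 CPM per kilobase in C3H and 1.26 in B6, so the place of St6galnac2 in B6 depends on this choice. In C3H, St3gal6 was first at 9.05 ± 1.097 CPM per kilobase, followed by St6galnac2 at 6.12 ± 0.86, St3gal4 at 4.26 ± 0.69, St6gal1 at 3.71 ± 0.78 and St3gal1 at 2.38 ± 0.25 (SD, n = 4 each). The libraries of St3gal4 and St6gal1 overlapped, so their order in C3H is not resolved. In B6, St3gal4 was first at 557 ± 14.3 CPM per kilobase, 57.9-fold above St3gal6 at 9.63 ± 0.28, and St3gal1 (5.32 ± 0.73), St6galnac2 (5.12 ± 0.36) and St6gal1 (4.51 ± 0.34) overlapped each other in turn. St3gal3 was sixth in both strains, apart from its neighbours in the order. At the low end, St3gal2 overlapped St3gal5 in C3H and St6galnac6 in B6, so the seventh place is not resolved. St3gal2, St3gal5 and St6galnac6 stayed between 0.538 and 0.973 CPM per kilobase on average in either strain, and St6galnac1 was last.

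Other genes of the sialic acid pathway were taken from 6 lists that hold none of the members. Of 57 tested genes, 7 rose and 11 fell in C3H, against 21.4% of all tested genes called, and their median log2 fold change was -0.05 against 0.03 for all tested genes. Without the 4 libraries richest in pancreatic transcripts 6 were called, 3 higher and 3 lower. All genes then gave 1675 calls in place of 3857. Only C3H 1, C3H 4, B6 4 and B6 5 were left, so fewer libraries and less pancreatic content cannot be told apart in lost calls. B6 3, left out at 86.9 CPM of pancreatic markers, lay close to C3H 4, kept at 75.9 CPM.

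Genes for the supply of sialic acid showed 2 rises and 0 falls among 11 tested, against 21.4% of all tested genes called. Slc35a1 (ENSMUSG00000028293), the transporter that carries activated sialic acid into the Golgi, rose 1.70-fold. It averaged 17.2 ± 2.09 CPM in C3H and 10.1 ± 0.48 CPM in B6 (SD, n = 4 each), without overlap (edgeR quasi-likelihood log2 fold change 0.76, standard error 0.10, adjusted p = 0.000208). Npl, a lyase that breaks sialic acid down, rose 1.35-fold (adjusted p = 0.0107 in edgeR), in 4 of 4 libraries above B6, and was not called in the 4 libraries left without the pancreas-rich ones, where its log2 fold change was 0.34 against 0.43 in all 8 (adjusted p = 0.318). The other 9 genes of this list were not called.

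Of the other sialyltransferases, 6 of 10 passed the filter and 1 fell, against 21.4% of all tested genes called. St8sia1, which makes the ganglioside GD3, fell to 0.608 ± 0.062 CPM in C3H, against 0.937 ± 0.098 CPM in B6 (SD, n = 4 each), without overlap. Its log2 fold change was -0.62 and its adjusted p = 0.0283 in edgeR. Leaving out B6 2, B6 3, C3H 1, C3H 4 or C3H 5 alone ended the call (highest adjusted p = 0.0818), as did DESeq2 (adjusted p = 0.0528), library totals, no filter and leaving out the pancreas-rich libraries (log2 fold change -0.59). Among the sialidases, which remove sialic acid, Neu3, the plasma membrane enzyme for gangliosides, rose 1.55-fold with overlapping libraries (edgeR adjusted p = 0.0449). Neu3 was not called once B6 3, B6 4, B6 5, C3H 1 or C3H 3 was left out alone (highest adjusted p = 0.123), nor without the pancreas-rich libraries (log2 fold change 0.75, against 0.63 in all 8), with library totals or upper-quartile scaling, or among genes averaging at least 100 counts. The other 3 tested sialidase genes were not called.

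Genes that build the galactose-ended chains on which sialyltransferases work were the list with the largest share called. Of these, 3 of 17 were higher and 7 lower, against 11.3% higher and 10.1% lower over all tested genes. B3gnt3 (ENSMUSG00000031803), which extends the core of O-glycans, fell to 124 ± 18.9 CPM in C3H, against 271 ± 19.0 CPM in B6 (SD, n = 4 each). No library overlapped, and the log2 fold change was -1.13 with a standard error of 0.11 (edgeR adjusted p = 3.55e-05). B4galt6, which makes lactosylceramide, fell by 0.49 on the log2 scale, with C3H below B6 in 4 of 4 libraries (edgeR adjusted p = 0.00843). Gcnt1, which branches O-glycans, rose 1.47-fold and B3gnt7, which extends lactosamine chains, rose 1.53-fold, each without overlap (edgeR adjusted p = 0.00317 and 0.00458). Gcnt1 was at a low level, 5.16 ± 0.27 CPM in C3H and 3.50 ± 0.28 CPM in B6 (SD, n = 4 each). The more abundant Gcnt3 went the other way, at 79.2 ± 12.1 CPM in C3H and 104 ± 13.0 CPM in B6 (SD, n = 4 each). Its libraries overlapped (edgeR adjusted p = 0.0402), and Gcnt4 was not called. In the 4 libraries left without the pancreas-rich ones B4galt6, Gcnt1 and B3gnt7 were not called, with log2 fold changes of -0.54, 0.54 and 0.36.

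**Figure D3:**
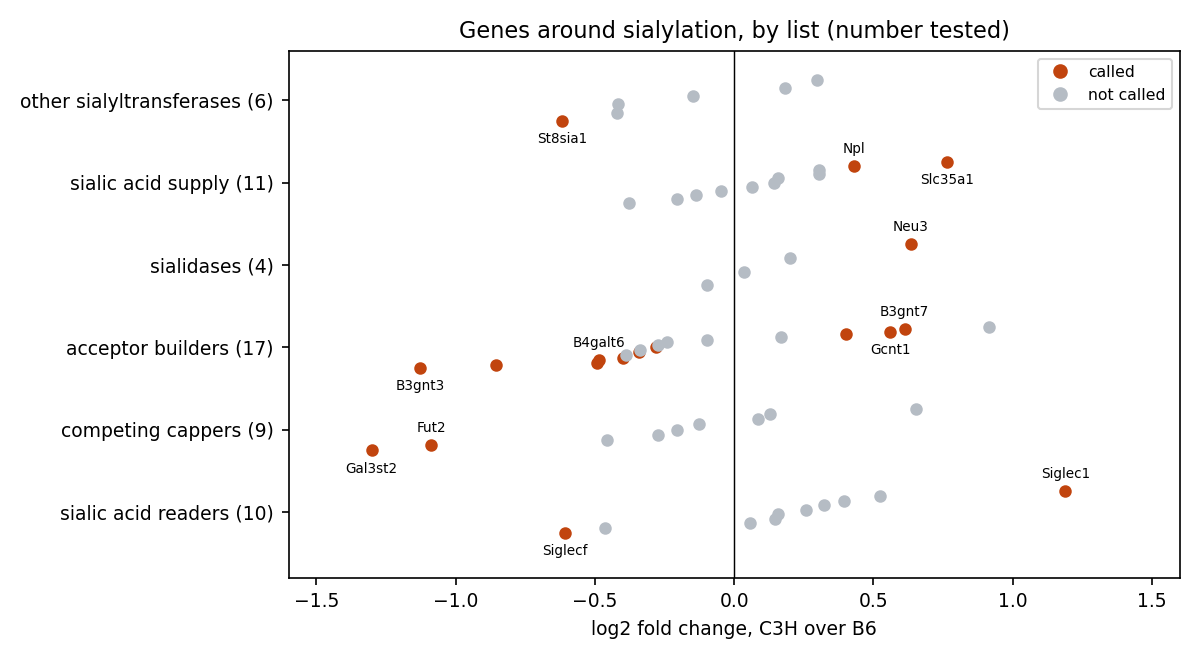
Log2 fold change, C3H over B6, of the 57 tested genes in 6 lists around sialylation, 1 point per gene, red where the gene was called by edgeR and grey where not. The acceptor-building genes hold 10 of the 18 red points, from B3gnt3 at -1.13 to B3gnt7 at 0.61.

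Enzymes that put something other than sialic acid on the same sugars showed 2 falls and 0 rises among 9 tested. Over all tested genes 21.4% were called. Gal3st2, which sulfates galactose, fell to 71.2 ± 21.9 CPM in C3H, against 175 ± 26.9 CPM in B6 (SD, n = 4 each; -1.30 on the log2 scale, edgeR adjusted p = 0.000963). It has close copies in the mouse genome that can share reads, so its value is uncertain. Fut2, the fucosyltransferase that makes blood group H in secretions, fell by 1.09 on the log2 scale at a low level, with 84 reads over the C3H libraries and 187 over the B6 libraries (edgeR adjusted p = 0.00184). Both separated the strains without overlap.

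Of 10 tested lectins and adhesion receptors that read sialic acid, 1 rose and 1 fell, against 21.4% of all tested genes called. Siglec1, a macrophage lectin, rose 2.28-fold to 6.56 ± 1.37 CPM in C3H, against 2.88 ± 0.70 CPM in B6 (SD, n = 4 each; edgeR adjusted p = 0.00104). Macrophage markers, of which 2 of 6 rose and 0 fell, summed to between 303 and 358 CPM in C3H and between 263 and 310 CPM in B6, with no marker at 0, and their part in the Siglec1 result was not tested. Siglecf, an eosinophil lectin that mouse tuft cells also express, fell to 4.30 ± 0.57 CPM in C3H, against 6.55 ± 0.72 CPM in B6 (SD, n = 4 each; edgeR adjusted p = 0.00630). Both genes separated the strains without overlap, and Siglecf was not called in the 4 libraries left without the pancreas-rich ones, where its log2 fold change was -0.78 against -0.61 in all 8 (edgeR adjusted p = 0.0537).

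Tested genes near St3gal4 in gene order on chromosome 9 were compared because position played no part in the choice of members. Among the 20 nearest tested protein-coding genes, 10 on each side in gene order, 1 rose and 1 fell, against 21.4% of all tested genes called, with a median log2 fold change of 0.13 against 0.03 for all tested genes. Untested genes were passed over in this order, and distances in bases were not measured. On the side of lower coordinates the nearest tested genes Ets1 and Fli1, a pair of transcription factor genes, had log2 fold changes of -0.03 and -0.27. On the other side Dcps, an mRNA cap scavenging enzyme, and Tirap, an adaptor of Toll-like receptors, had 0.31 and -0.13. None of these 4 was called. Barx2, a homeobox gene 5 tested genes away, fell to 15.7 ± 1.21 CPM in C3H, against 43.7 ± 15.4 CPM in B6 (SD, n = 4 each; edgeR log2 fold change -1.48, adjusted p = 0.000759). Fam118b, 5 tested genes away on the other side, rose 1.22-fold (edgeR adjusted p = 0.0272) and its call ended when B6 3, B6 4 or any single C3H library was left out (highest adjusted p = 0.0856).

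**Figure D4:**
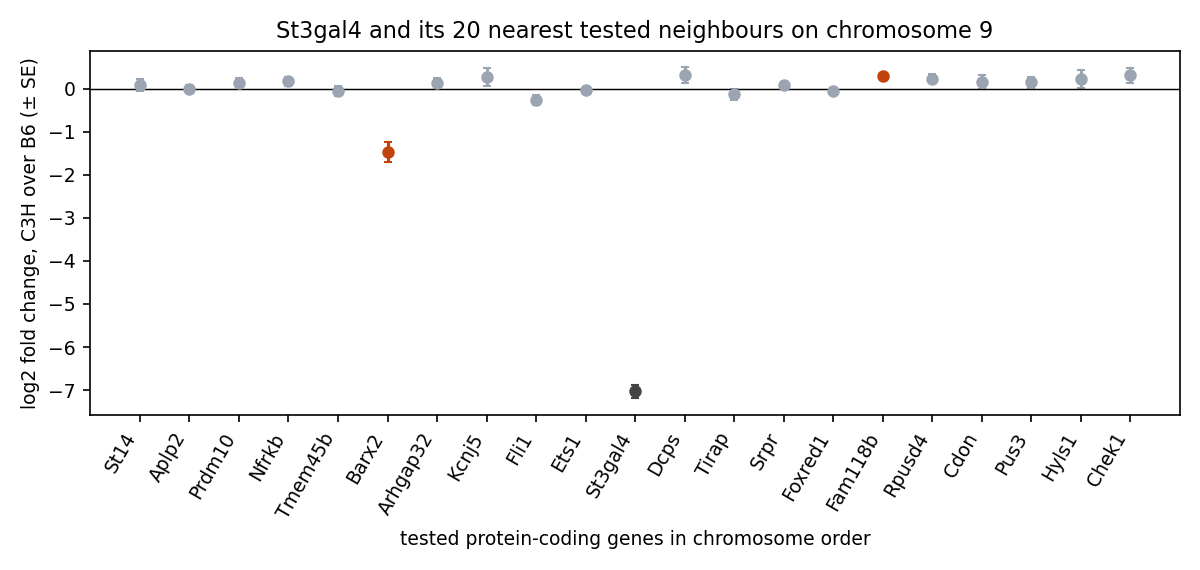
Log2 fold change, C3H over B6, with standard error, for St3gal4 (dark) and the 10 nearest tested protein-coding genes on each side of it in chromosome order, red where called by edgeR. St3gal4 lies at -7.03 and Barx2 at -1.48, while the 18 genes that were not called lie within 0.31 of 0.

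A noncoding transcript, 4930581F22Rik (ENSMUSG00000070315), overlaps St3gal4 on the opposite strand in the annotation, and it was looked up for that reason after its values could be seen. It had 137, 145, 67 and 87 reads in C3H and 287, 236, 370 and 329 reads in B6. No library overlapped, and its log2 fold change was -1.46 (standard error 0.16, edgeR adjusted p = 7.22e-05), smaller in size than that of St3gal4. The strand setting of the counting is stated in no source used here, so reads of this transcript and of St3gal4 cannot be told apart with certainty.

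The named genes whose profiles over the 8 libraries came closest to that of St3gal4 were read almost only in B6, with far fewer reads than St3gal4. Likeness was the root mean square difference of log2 CPM, each gene centred on its own mean and with a prior count of 2 added. Its median over 18024 genes was 3.54. The measure takes in the strain difference for which St3gal4 was chosen, so genes near it had to be far lower in C3H. Nothing is read from that direction. The immunoglobulin segment Ighv1-54 stood at 0.34, with 0 reads in C3H and 951 in B6, and Ighv1-58 at 0.41 with 1 and 883. H2-Q3, a class I sequence annotated as an unprocessed pseudogene, stood at 0.43 with 0 and 648. The restriction factor gene Trim5 stood at 0.45 with 15 reads in C3H and 1822 in B6, and Ighv4-1 at 0.49 with 0 and 1289. For the genes with 0 or 1 read in C3H the likeness depends on the prior count, so the order of the 5 is not resolved. All 5 belong to families of close copies, so their values are uncertain. St3gal4 had 2251 reads in C3H and 304184 in B6.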

How the data were processed

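The authors deposited raw read counts per Ensembl gene for 8 jejunum libraries. Reads were processed with STAR 2.7.9a and HTSeq 2.0.2 on GRCm39, per the submitters' processing notes; no source used here gives the annotation release or strand setting. The reference genome derives from C57BL/6J, and how many reads with C3H sequence went uncounted was not measured. Names, gene order and exon lengths came from GENCODE M21 (GRCm38), so no gene coordinates are given: 51948 identifiers had a symbol, 4993 had none, and all 143 listed genes were found.

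Counts were fitted in edgeR 4.0.16 (R 4.3.3) with TMM scaling, filterByExpr at a minimum count of 10, the quasi-likelihood F test and Benjamini-Hochberg adjustment over all tested genes at 0.05. Standard errors come from the fold change and F statistic. The members and gene lists were chosen with earlier results of these data known. Named were all members and up to 4 called genes per list with the smallest adjusted p. The 2 nearest tested neighbours per side and those called, and the 5 most similar named genes, were also named. Gcnt3 and Gcnt4 were added beside Gcnt1 after their values were seen. Of marker lists only sums are given; endothelium (2 of 6 higher, 1 lower), smooth muscle (0 of 5 called), fibroblast (0 of 5) and neuron and glia (1 of 5 lower) overlapped in summed CPM between the strains, as did pancreas (1 of 9 higher, 4 at 0 in some library). Alternatives were other scalings and filters, DESeq2 1.42.0, limma-voom (limma 3.58.1), robust dispersion, leaving out libraries and a replicate block. The fit was tested on simulated data.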

Additional observations from a re-analysis of the deposited data

Results flagged for a closer look

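Of 74 sets of 4 libraries examined for a sample far from the rest, 5 held one, and chance alone would mark about 1 in 20. St6galnac2 had 42.8 CPM in C3H 5, above 32.6 to 33.3 CPM in the other C3H libraries. Siglecf had 3.45 CPM in C3H 1, below 4.51 to 4.72 CPM in the other C3H libraries. The 10 members summed to 1725 CPM in B6 2, below 1811 to 1823 CPM in the other B6 libraries. St6galnac1 (0.0186 CPM in B6 5) and Ighv1-58 (0.0269 CPM in C3H 5) each rested on 1 read in their group. The cause of these deviations was not tested.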

How the results depend on the processing

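The log2 fold change of St3gal4, given as a description, was -7.22 without the 4 pancreas-rich libraries. The log2 ratio of the members' sum was -3.53, and -4.24 per kilobase of exon, -4.26 per kilobase of the longest transcript (added after seeing the data) and -3.63 without the pancreas-rich libraries; for the 9 relatives it was -0.20, and -0.12 by longest transcript and -0.30 without those libraries. With 1 library left out these ratios ran from -3.57 to -3.50 and from -0.24 to -0.18, the called members from 2 to 5, pathway genes from 13 to 16, all genes from 3099 to 3682 and neighbours from 1 to 2. Without the pancreas-rich libraries 1675 genes and 6 pathway genes were called. Of the neighbours 1 was called with library totals, without a filter, without the pancreas-rich libraries, and in the 6 libraries whose numbers occur in both strains, with or without a replicate block. Deviations of same-numbered libraries of the 2 strains correlated at -0.044 to 0.14, and those of differently numbered libraries at -0.14 to 0.031. So few pairs do not settle whether replicate numbers pair the samples. With the replicate block 2919 genes, 2 members and 11 pathway genes were called (St3gal4 -7.09), against 3212, 3 and 13 in the same libraries without it. Signs turned for genes near 0: St3gal3 (-0.0071 to 0.14 with 1 library left out), Ets1 (0.034 with library totals, 0.030 without the pancreas-rich libraries, -0.066 to 0.0036 with 1 library left out) and Tirap (0.020 without the pancreas-rich libraries). The cause of these shifts was not tested. Leaving the second St6galnac2 identifier out of the sums, also added after seeing the data, moved neither ratio by more than the spread between libraries. St6galnac1, at 0 to 2 reads per library, could not be compared at this depth.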
